A study of Arabidopsis thaliana with 6 samples.

Results

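The loci AT5G60250, AT2G18600, AT2G47680, AT4G22960 and AT1G17360 of Arabidopsis thaliana were examined for their transcript levels in wild type plants and in an atm mutant. Each was measured by 1 probe set, so that 5 of the 13333 genes named on the ATH1 array, and 5 of its 22746 probe sets without controls, are described here. They are loci linked to the response to ionising radiation, and they were chosen because earlier results of these data had shown lower signal in the mutant without a pass over all probe sets. That contrast therefore chose them, and their differences between the genotypes are given as a description.

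The samples were 3 wild type and 3 atm mutant RNA preparations from whole plants at growth stage 1.04, each hybridised to 1 array. The wild type carries the strain label Col0. The mutant's titles say atm, its source name says ATM1 and its genotype says AtATM3 mutant, so that the allele is not settled by the labels, which give no strain for it. All plants were grown at 22 °C with 9 h of light and 15 h of dark on agar medium with sucrose. The series title names X-ray inducible transcripts, but no label gives an irradiation, a dose or a time, so the question that could be addressed was how each locus differed by genotype. Nothing in the labels says that replicates came from separate cultures. The limma p-values therefore reflect the spread between these 6 samples, and that spread may be technical.

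ATM is a protein kinase that is activated by DNA double-strand breaks. In plants it phosphorylates the transcription factor SOG1, which raises the transcription of genes for DNA repair, cell cycle arrest and other responses. RING-type zinc finger proteins often act as ubiquitin ligases. Ubiquitin-conjugating (E2) enzymes carry ubiquitin or a related modifier and act together with ligases. Helicases unwind nucleic acid with energy from ATP. In bulk RNA of whole plants, fewer cells that express a gene and less of its RNA per cell cannot be told apart.

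Array medians of the deposited signal lay between 40.01 and 41.3. No probe set was named for ATM, so the genotype was not checked at its own transcript. The leaf marker RCA, which encodes Rubisco activase, averaged 4946 ± 1084 on wild type and 5174 ± 347 on mutant arrays (SD, n = 3 each), the only 1 of 4 leaf markers named on the array. Of 4 root markers, PYK10 had 3170 ± 186 and 3344 ± 365, and EXPA7 had 32.5 ± 10.6 and 28.3 ± 6.11. None of these 3 differed by more than the spread between replicates, and no flower or seed marker was named. The 3' to 5' signal ratio of the GAPDH control was 1.08 to 1.41 on wild type and 1.40 to 1.56 on mutant arrays. That of the actin control was far higher, 8.35 to 11.1 on wild type and 9.10 to 9.94 on mutant arrays. The part of these ratios in the results below was not tested. Wild type replicate 1 and atm mutant replicate 2 deviated from their genotype means together over the tested probe sets (r = 0.647). The control probe set for 25S ribosomal RNA read 836 and 2123 on them and 4106 to 5400 on the other 4 arrays. The differences of the 5 loci between the genotypes are therefore also given without these arrays. The gene lists, the correlations, the likeness in profile and the chromosomal neighbours were examined with all 6 arrays only.

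All 5 loci had lower signal on every mutant array than on any wild type array. Non-overlapping groups of this kind, lower in the mutant, were found in 4.85% of the 13895 probe sets tested, and since this contrast chose the loci nothing is read from their count. Among them 4 of 5 were at least 2-fold lower by geometric mean, against 0.648% of all probe sets tested. The median log2 change, mutant minus wild type, was -1.33 over the 5 and 0.01 over all probe sets tested. Limma with Benjamini-Hochberg adjustment called 0 of the 5 at an adjusted p under 0.05, where 0.223% of the tested probe sets were called, and 5 of 5 had an unadjusted p under 0.05 with lower signal, where 2.16% did. All 5 passed the filter on dim probe sets, but AT5G60250 and AT4G22960 passed it through the wild type alone, since all 3 of their mutant arrays lay below the 40th percentile of the array. For these 2 a lower mutant signal was thus built into the filter.

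**Figure D1:**
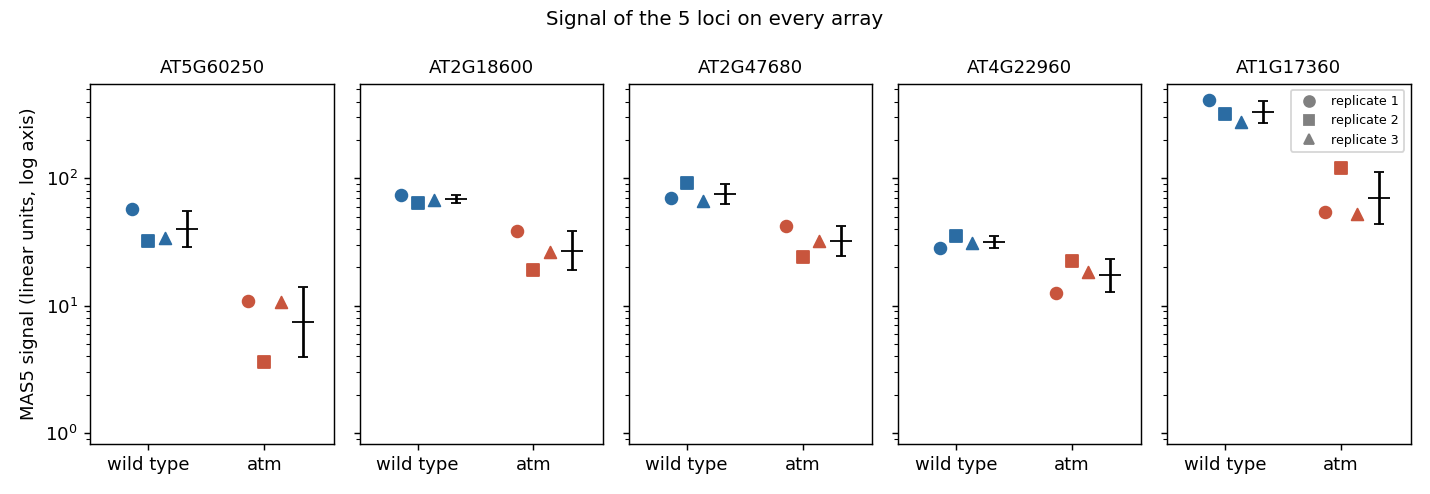
MAS5 signal (linear units on a log axis) of the 5 loci on each array, with wild type in blue, atm mutant in red and replicates 1 to 3 as circle, square and triangle; black bars give the geometric mean ± 1 SD of the log2 signal (n = 3). In each panel the 3 mutant points lie below the 3 wild type points, and levels are not comparable between panels, which are different probe sets.

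The zinc finger locus AT5G60250 had signals of 57.5, 32.3 and 34.1 on wild type replicates 1, 2 and 3 and of 10.9, 3.60 and 10.6 on atm mutant replicates 1, 2 and 3. Wild type replicate 1 stood above the other wild type arrays, and atm mutant replicate 2 stood below the other mutant arrays. The lowest wild type value was 2.95 times the highest mutant value. Means were 41.3 ± 14.1 and 8.38 ± 4.15 (SD, n = 3 each), and the log2 change was -2.42 (SE 0.53, limma adjusted p = 0.391). By geometric mean this was 5.34-fold lower, or 4.13-fold with values under the 20th percentile of an array raised to it, which touched 1 mutant array. Its residual SD on the log2 scale, 0.723, lay at percentile 96.2 of all tested probe sets, so that the locus combined a fall of rank 22 in size with a rank of 74 by p. Adding the 40th percentile of the arrays to every signal as a pseudocount gave a log2 change of -0.97.

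AT2G18600, of the ubiquitin-conjugating family, had signals of 73.3, 63.4 and 68.0 on the wild type arrays and of 38.8, 19.2 and 26.5 on the mutant arrays. The wild type values were close, within 1.16-fold of one another, while the mutant values spanned 2.02-fold. Means were 68.2 ± 4.95 and 28.2 ± 9.93 (SD, n = 3 each), which is -1.33 on the log2 scale (SE 0.27, adjusted p = 0.277 by limma). The geometric mean was 2.52-fold lower in the mutant. Adding the pseudocount gave -0.82.

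The E2 enzymes UBC1 to UBC37 gave the setting for this locus. The annotation named 14 of these 37 genes, of which 12 were tested, and limma called 0 lower and 0 higher, with 0 at an unadjusted p under 0.05. Their log2 changes ran from -0.09 to 0.24 with a median of 0.02. UBC16 at 0.15 (SE 0.14) and UBC20 at 0.24 (SE 0.24) had the smallest p of them. Whether AT2G18600 differed from its relatives was not tested, and this contrast chose AT2G18600 but not the list of relatives. Of 9 loci for conjugation of RUB, the plant form of the ubiquitin-like modifier NEDD8, 0 were named on the array, and they were not analysed here.

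AT2G47680, a helicase with a zinc finger, had signals of 70.6, 92.5 and 66.0 on the wild type arrays and of 42.1, 24.3 and 32.2 on the mutant arrays. Wild type replicate 2 was the highest and atm mutant replicate 2 the lowest, with a factor of 1.57 between the lowest wild type and the highest mutant value. Means were 76.3 ± 14.1 and 32.9 ± 8.93 (SD, n = 3 each), which is -1.24 on the log2 scale (SE 0.24, adjusted p = 0.263 by limma). This was 2.35-fold lower by geometric mean, and adding the pseudocount gave -0.81.

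Other DExH helicases, relatives by the motif of their ATPase, had differences nearer to zero. The annotation named 10 of the 18 listed, 9 were tested, and limma gave 0 called and 0 at an unadjusted p under 0.05. Their log2 changes ran from -0.29 to 0.20 with a median of 0.06. AT4G18465 had 0.20 (SE 0.19) and AT3G62310 had -0.29 (SE 0.31), the pair with the smallest p. The difference between AT2G47680 and these helicases was not itself tested, and here too the contrast chose the locus but not its relatives.

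**Figure D2:**
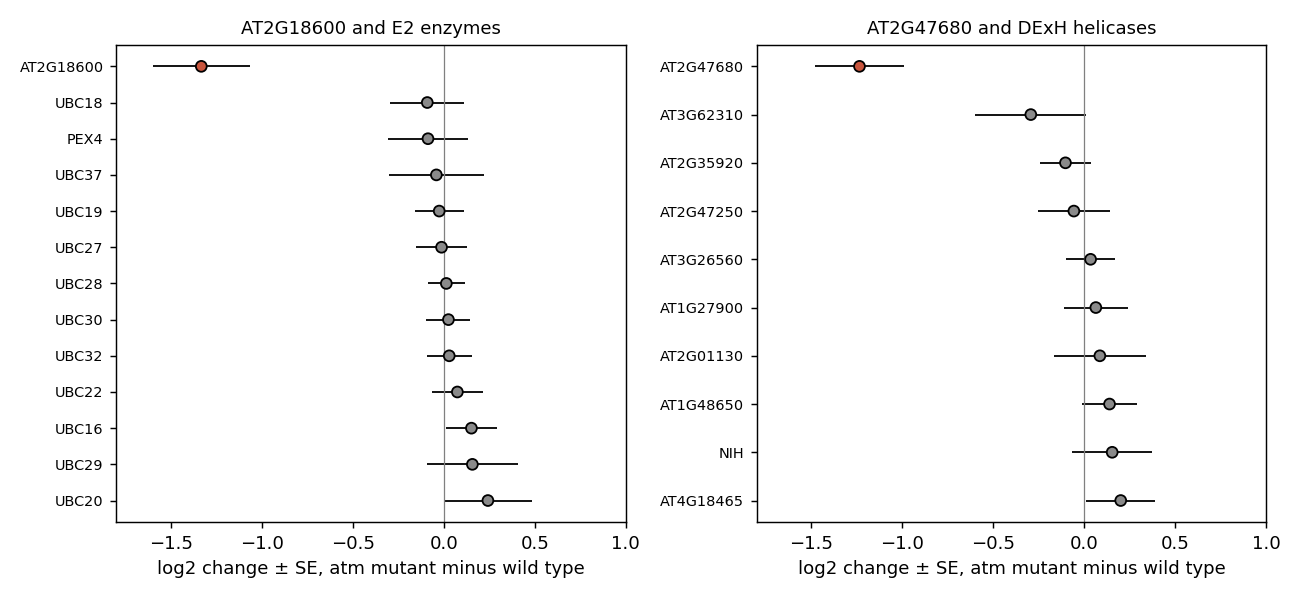
Log2 change ± SE (limma, 3 arrays per genotype), atm mutant minus wild type, of AT2G18600 beside the 12 tested E2 enzymes (left) and of AT2G47680 beside the 9 tested DExH helicases (right). The 2 loci, in red, lie at -1.33 and -1.24, and the relatives, in grey, between -0.29 and 0.24.

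The relatives of AT5G60250 could not be set beside it in the same way. Of 11 loci recalled as RING proteins of its kind 7 were named on the array, and 0 passed the filter on dim probe sets. AT2G26135 was the only one of the 7 above the 40th percentile on any array, with 20.6 ± 7.93 on wild type and 18.8 ± 4.35 on mutant arrays (SD, n = 3 each), a difference within the spread of replicates.

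AT4G22960 carries only its locus code in the annotation used. It had signals of 28.6, 35.5 and 31.2 on the wild type arrays and of 12.6, 22.4 and 18.2 on the mutant arrays. The groups came close, with the lowest wild type value 1.27 times the highest mutant value, which was that of atm mutant replicate 2. Means were 31.7 ± 3.48 and 17.7 ± 4.95 (SD, n = 3 each), and the log2 change of -0.87 (SE 0.31, limma adjusted p = 0.9996) was the smallest of the 5. On the wild type arrays the probe set stood between percentiles 42.6 and 46.7, just over the filter, and between 25.8 and 37.5 on the mutant arrays. Its rank by p was 227. Adding the 40th percentile as a pseudocount gave -0.41.

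AT1G17360, also known here by its locus code alone, was the locus nearest to the threshold. Its signals were 411.2, 319.2 and 278.0 on the wild type arrays and 54.4, 120.6 and 52.2 on the mutant arrays. The mutant arrays 1 and 3 were nearly equal, while atm mutant replicate 2 was well above them and still below every wild type array. Means were 336 ± 68.2 and 75.7 ± 38.9 (SD, n = 3 each), which is -2.25 on the log2 scale (SE 0.33, adjusted p = 0.0619 by limma) and a geometric mean 4.74-fold lower in the mutant. Its wild type signal lay between percentiles 89.2 and 93.0 of the arrays and its mutant signal between 56.2 and 75.3, so this change did not rest on dim values. By p it ranked 33, where the last called probe set ranked 31. Without atm mutant replicate 2 it was called, with a log2 change of -2.64 (adjusted p = 0.00207), while 0.252% of the tested probe sets were called lower in that fit. A list of 5 loci held the light-signalling regulator COP1, its interacting proteins and AT4G11860, which was entered for the protein domain DUF544. AT4G11860 was the only one named on the array, with a log2 change of -0.11 (SE 0.12). Neither COP1 nor an interacting protein could thus be set beside AT1G17360. The annotation used gives no domain for AT1G17360 or AT4G22960, so AT4G11860 is not read as a relative of either.

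The threshold lay between 2 probe sets on either side of it. The one just inside, unnamed here, averaged 255.3 ± 46.4 on wild type and 88.0 ± 19.3 on mutant arrays (SD, n = 3 each), a log2 change of -1.55 with an adjusted p of 0.0454 (limma). Just outside, AT5G27760 had 664 ± 77.6 and 346 ± 25.4, a log2 change of -0.94 with an adjusted p of 0.0581. The fall of AT1G17360 was larger than both, also with the pseudocount, where it was -1.89 against -1.31 just inside and -0.89 just outside. AT5G60250, at -2.42 on dim mutant signals, lay between them with the pseudocount, at -0.97. The residual SDs of AT5G60250 and AT1G17360 stood at percentiles 96.2 and 90.8 of the tested probe sets. For AT2G18600, AT2G47680 and AT4G22960 the residual SDs stood at percentiles 78.4, 73.9 and 71.2.

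**Figure D3:**
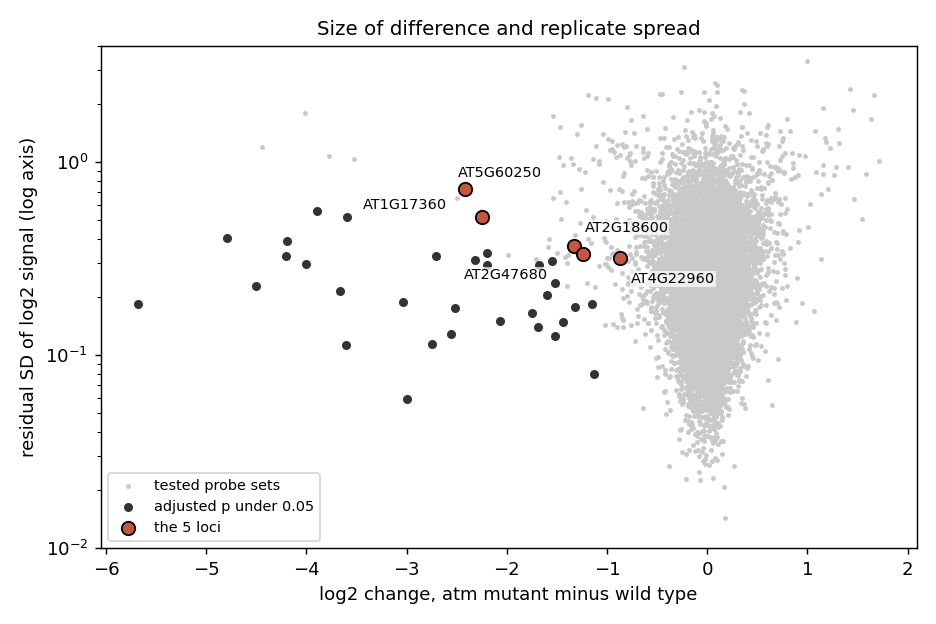
Log2 change, atm mutant minus wild type (horizontal), against the residual SD of log2 signal within genotypes (vertical, log axis) for the 13895 tested probe sets in grey, with the 31 called ones in black and the 5 loci in red. The 5 loci lie at changes from -2.42 to -0.87, on the side of larger SD from the called probe sets of similar change.

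The 5 loci did not share 1 pattern within the mutant. On atm mutant replicate 2, AT5G60250 differed by -1.58 on the log2 scale from the mean of the other mutant arrays, AT2G18600 by -0.74 and AT2G47680 by -0.60. On the same array AT4G22960 was higher than the other mutant arrays by 0.57 and AT1G17360 by 1.18. Among all tested probe sets these differences stood at percentiles 0.734, 5.09 and 8.05 for the first 3 loci and at 90.2 and 97.7 for the last 2. The value for AT5G60250 rests on dim signals, and with the signal of that array raised to the 20th percentile its difference was -0.47. The other 4 differences were the same with that floor. On wild type replicate 1, the array that deviated together with it, AT5G60250 was 0.79 and AT1G17360 0.47 above the other wild type arrays, and the other 3 loci differed by -0.22 to 0.16. AT1G17360 was thus the locus that was high in its genotype on both of these arrays.

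Correlations of log2 signal were computed between the loci as a description. Over the 6 arrays, which share 1 genotype difference and 1 scaling factor each, AT5G60250, AT2G18600 and AT2G47680 correlated with one another at Pearson r of 0.922 to 0.969, and AT4G22960 with AT1G17360 at 0.906. Between the groups r was 0.576 to 0.761. After each genotype's mean was removed, r was 0.563 to 0.83 among the first 3 loci and 0.569 between the last 2. Between the groups it was then -0.982 to -0.619. The groups were formed by the direction of each locus on atm mutant replicate 2, which enters these same deviations. The signs of r after removal of the means therefore follow in part from the grouping, and nothing is concluded from them. These values rest on 6 arrays, AT5G60250 entered with dim mutant signals, and atm mutant replicate 2 had the largest deviation for 3 of the loci.

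**Figure D4:**
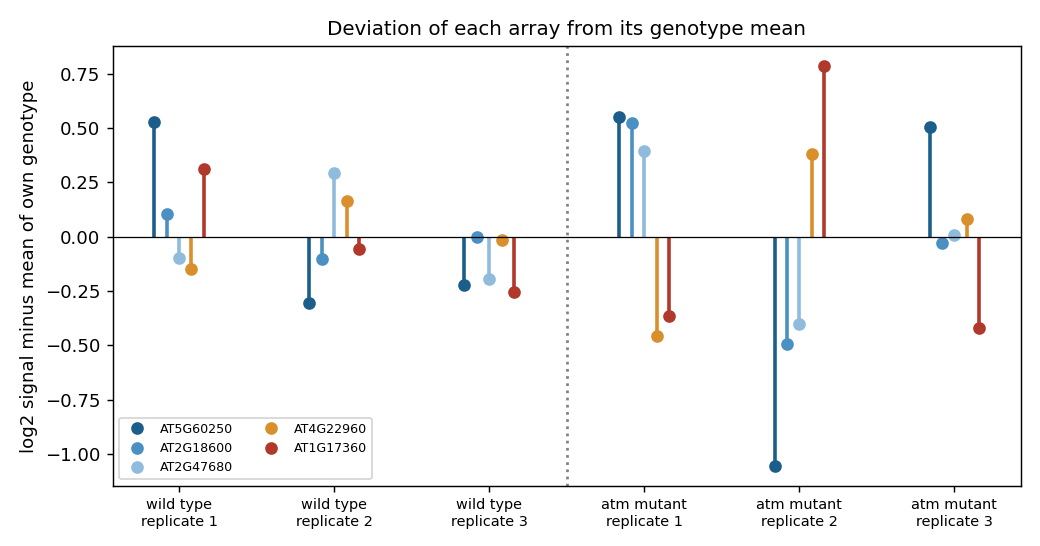
Log2 signal of each locus minus the mean of its own genotype (vertical) on each of the 6 arrays (horizontal), 1 stem per locus. On atm mutant replicate 2 the 3 loci in blue lie below 0 and AT4G22960 and AT1G17360 above it, with the reverse on atm mutant replicate 1.

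How the 2 deviating arrays were handled changed which loci passed. With array weights, which lowered the weight of both, AT1G17360 was called (log2 change -2.37, limma adjusted p = 0.00109), where 0.489% of the tested probe sets were called lower. With a term for the 2 arrays AT1G17360 (-2.25, adjusted p = 2.6e-06), AT2G47680 (-1.24, adjusted p = 0.0101) and AT2G18600 (-1.33, adjusted p = 0.0163) were called, against 0.662% of all. In that fit AT5G60250 had an adjusted p of 0.0501 and AT4G22960 one of 0.417. Without both arrays, with 2 left per genotype, AT1G17360 (-2.48, adjusted p = 6.2e-07) and AT2G47680 (-1.08, adjusted p = 0.0368) were called, against 1.13% of all. That fit called 157 probe sets lower and 76 higher. The 2 arrays were picked by their own deviation, so its p-values may understate the spread between replicates. On the other 4 arrays the log2 changes were -1.62 for AT5G60250, -1.03 for AT2G18600 and -1.14 for AT4G22960. Their limma adjusted p were 0.114, 0.0607 and 0.234. On all 6 arrays the residual SD of AT1G17360 was 0.522 without the term and 0.252 with it. That of AT5G60250 was 0.723 without the term and 0.793 with it.

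**Figure D5:**
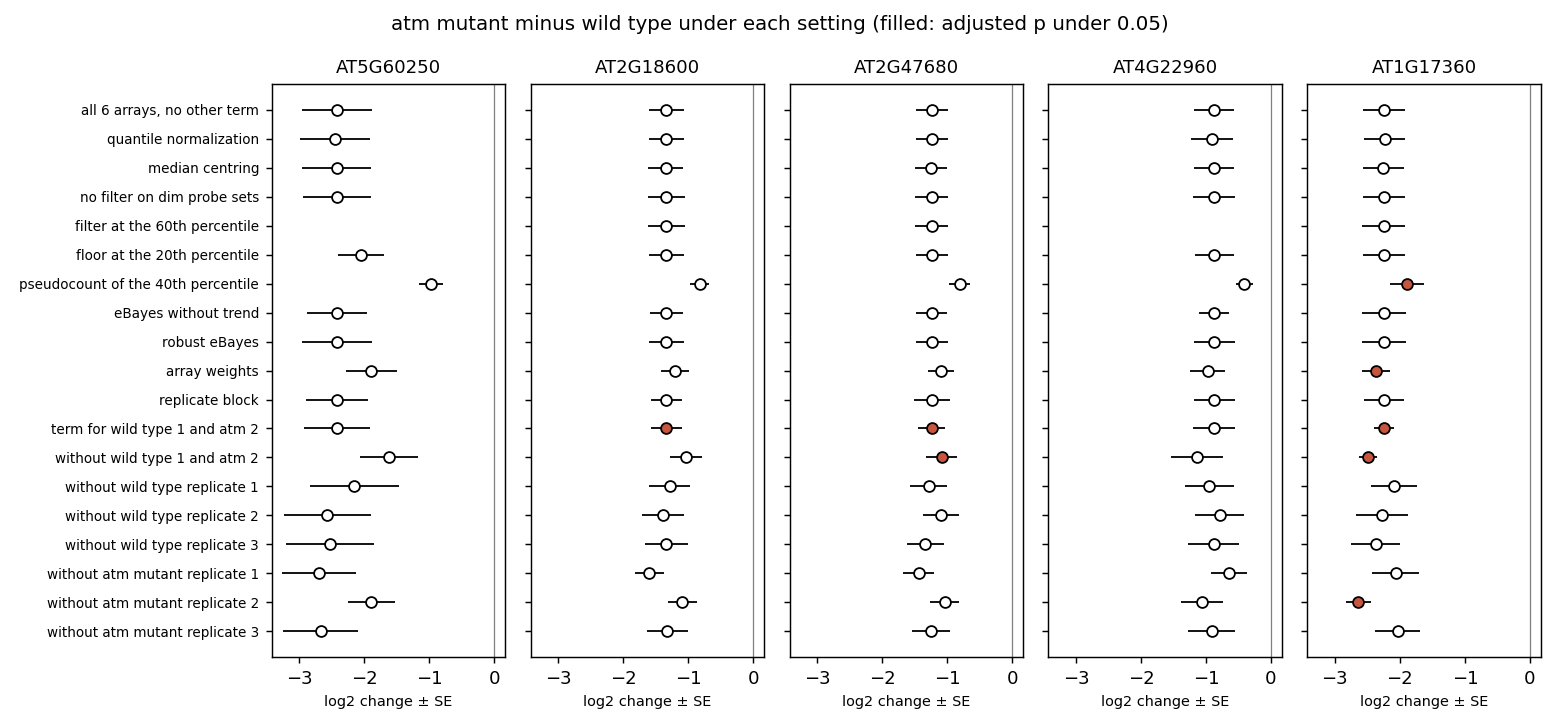
Log2 change ± SE (horizontal), atm mutant minus wild type, of each locus under each setting (vertical), filled where the limma adjusted p was under 0.05. The changes lie below 0 in every setting run, filled points are 5 for AT1G17360, 2 for AT2G47680, 1 for AT2G18600 and 0 for AT5G60250 and AT4G22960, and a missing point marks a locus that the stricter filter removed.

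Most other loci recalled for the radiation response were lower as well. The list held 46 loci recalled from general knowledge as induced by ionising radiation or dependent on SOG1, with the 5 left out. Of these, 14 were named on the array and 11 tested. Limma called 7 lower and 0 higher, where 0.223% of all probe sets tested were called, and the median log2 change over the 11 was -2.32, against 0.01 over all probe sets tested. Of the called loci AT2G45460, AT5G48020 and AT3G45730 had log2 changes between -3.61 and -2.32. The other 4, which were AT4G25580, AT5G23910, AT3G42860 and AT1G59660, were under the 40th percentile of each mutant array and passed the filter through the wild type alone. With the pseudocount their log2 changes were -1.50 to -1.23, and the median of the 11 was -1.30. The meiotic recombination gene ATMND1 had -1.59 (adjusted p = 0.388), AT3G20490 -1.26 and AT5G11460 -1.03, all short of the threshold like the 5 loci. ATMND1 too was under the 40th percentile of all 3 mutant arrays and passed the filter through the wild type alone. AT3G20490 was under it on 2 mutant arrays. With the pseudocount ATMND1 had -0.70, AT3G20490 -0.61 and AT5G11460 -0.68. AT5G44680 was the exception in direction, at 0.12 (SE 0.29). The list was recalled with results of these data known, so its direction is no independent evidence.

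The named genes most like the mean profile of the 5 loci were picked by Pearson r of log2 signal over the 6 arrays, among 7442 named probe sets. They were AT5G49990 (r = 0.995), AT2G17350 (0.989), AT2G40960 (0.988), AT1G59660 (0.988) and AT2G45460 (0.985). AT5G49990 averaged 146.2 ± 6.68 on wild type and 94.0 ± 2.43 on mutant arrays (SD, n = 3 each), which is -0.64 on the log2 scale (SE 0.12, adjusted p = 0.195 by limma). AT2G17350 and AT2G40960 had changes of -0.37 and -0.38, so the likeness did not extend to the size. The mean profile was close to a plain step between the genotypes, the contrast that chose the loci, since the opposed deviations within the mutant largely cancelled in it. The likeness of each single locus to this mean is not given. AT1G59660, at -4.20 on mutant signals below the 20th percentile (-2.65 with the floor), and AT2G45460, at -3.61, were among the called probe sets.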

How the data were processed

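Transcript levels were measured on 6 ATH1 arrays. The deposited intensity is a linear MAS5 signal for each probe set, and MAS5 and GCOS are the tools that the submitters' processing notes name. Neither scaling target nor detection calls are given in the sources used here; the mean after trimming 2% at each end was 100.0 on every array. Low signals scatter widely after a log transform, and 6 arrays limit the precision. No further scaling was applied before log2. The filter removed the 64 control probe sets and those with fewer than 3 arrays above the array's 40th percentile. The genotype difference was fitted by limma 3.58.1 in R 4.3.3 (eBayes with trend, 6 arrays, no block), with two-sided p-values, Benjamini-Hochberg adjustment over all 13895 tested and a threshold of 0.05. An exact permutation test of 3 against 3 arrays cannot go below 0.1. The code was tested on simulated data. Genes were named from the platform annotation through gene IDs of the TAIR10.1 gene table: 13513 probe sets had 1 gene, 503 several and 8730 none, and 13436 of those with 1 gene matched. That table's gene order gave the chromosomal neighbours; no coordinates are printed, and promoter and protein sequences were not analysed here. The members, gene lists and alternatives were chosen with earlier results of these data known. The text names the 5 loci, up to 6 called members of each list or the 2 with the smallest p, the 5 genes most alike in profile and the probe sets next to the threshold; a few further list members were named after their values were seen.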

Additional observations from a re-analysis of the deposited data

How the results depend on the processing

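All 5 loci kept a negative log2 change under each of the alternatives run (17 for AT5G60250 and AT4G22960, which the filter at the 60th percentile removed, and 18 for the others). For AT1G17360 the call was gained with a pseudocount of the 40th percentile (-1.89, limma adjusted p = 0.0386, where 0.245% of probe sets were called lower) and with array weights (-2.37). It was also gained with a shared term for the 2 deviating arrays, wild type 1 and atm mutant 2 (-2.25), and without both (-2.48). Leaving out atm mutant replicate 2 alone gave the call as well (-2.64). AT2G18600 gained it with the term (-1.33), and AT2G47680 with the term (-1.24) and without both arrays (-1.08). The number of the 5 loci called was 0 with all 6 arrays and no other change. It was 1 with the pseudocount, 1 with array weights, 3 with the term and 2 without both arrays. Over all probe sets the 31 calls became 73 with array weights, 108 with the term and 233 without both. With single arrays left out the count was 0 to 1 of the 5 loci and 13 to 36 probe sets, the 13 without wild type replicate 2 and also without wild type replicate 3. With single arrays left out the log2 changes ranged from -2.69 to -1.89 for AT5G60250, -1.60 to -1.09 for AT2G18600, -1.43 to -1.03 for AT2G47680, -1.06 to -0.64 for AT4G22960 and -2.64 to -2.03 for AT1G17360. Over the other alternatives the smallest changes were those with the pseudocount, -0.97, -0.82, -0.81, -0.41 and -1.89 in the same order. The cause of these shifts was not tested.

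The deviations of arrays with the same number had correlations of -0.461, -0.46 and 0.379, and the numbers were not taken to pair the samples. A replicate block on the number left 11 probe sets and 0 of the 5 loci called; the log2 changes stayed at -2.42 for AT5G60250, -1.33 for AT2G18600, -1.24 for AT2G47680, -0.87 for AT4G22960 and -2.25 for AT1G17360, with limma adjusted p from 0.225 for AT1G17360 upward.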

Other observations

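The nearest protein-coding genes along the chromosome, 2 on each side of each locus in the TAIR10.1 gene table, were looked at for their signals. Of these 20 neighbours 10 were named on the array and 4 passed the filter on dim probe sets, of which limma called 0 and 0 had an unadjusted p under 0.05. Directly beside AT1G17360, AT1G17350 averaged 99.0 on wild type and 94.0 on mutant arrays, a log2 change of -0.07 (SE 0.21). Next to AT2G18600, AT2G18590 had 23.1 and 30.8, a log2 change of 0.47 (SE 0.30), and on the other side AT2G18620 was too dim to be tested, while AT2G18630, the gene after it, had 0.04 (SE 0.16). AT2G47690, beside AT2G47680, had 119 and 137, a log2 change of 0.20 (SE 0.15). The neighbours of AT5G60250 and AT4G22960 that were named on the array were all too dim to be tested. These values were looked up after the results on the 5 loci had been seen.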
